A study of Mus musculus with 9 samples.

Results

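The transcripts described here are 53 pseudogenes of cytosolic ribosomal protein genes that carried reads in mouse cortex. They were taken from the deposited table by symbol (names built on Rpl, Rps, Rpsa or Rplp) and by an annotated biotype containing the word pseudogene. A pseudogene was kept when at least 1 of the 9 libraries reached 1 FPKM (fragments counted per kilobase of a gene and scaled to a common library size). Of 54532 genes in the table, 297 fitted the symbol and the biotype. Of these, 2 lie in a chromosome 8 interval outside the rule used here and were not analysed. Of the other 295, 117 had 0 reads in every library, 125 had reads but stayed under 1 FPKM, and 53 were kept. The pseudogenes were thus chosen by the FPKM values of the same 9 libraries, so their levels are given as a description, and counts over the 53 support nothing by themselves.

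Cortex RNA was sequenced from 9 male mice aged 8 to 12 weeks, 3 each of C57BL6/J (B6), C3H/HeJ (C3H) and WSB/EiJ (WSB). The mouse reference genome comes from B6, whereas C3H is a further classical inbred strain and WSB was derived from wild mice. The groups differ by strain alone as far as the labels say, and the comparisons ask how read counts on these copies and on the genes they derive from vary between strains.

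Ribosomal proteins form the small (Rps) and large (Rpl) subunits of the ribosome together with ribosomal RNA, and most are encoded by 1 coding gene that every cell uses. Their abundant mRNAs have been copied back into the genome many times during mammalian evolution. Such a processed pseudogene has no introns and often no promoter of its own, and a recent copy differs from the mature mRNA of its parent gene at few bases. A short sequencing read from the parent can then match the copy nearly as well as the parent, so reads on a recent copy are an uncertain measure of its own transcription.

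The 53 kept pseudogenes were close copies. Each was aligned to the coding sequence of its parent gene in GENCODE M21 (assembly GRCm38), and the median identity was 99.3%, with a range of 79.8% to 100%. At least 98% identity was found for 45 of the 53, and 8 were identical to the parent over the aligned part. The 237 pseudogenes under 1 FPKM that could be aligned had a median identity of 94.97%, and 54 of them reached 98%. Among the 115 aligned pseudogenes with 0 reads in every library the median was 91.4%, and 7 reached 98%. Identity was not used to choose the pseudogenes. Across the 53, the Spearman correlation of identity with mean FPKM was 0.31, given as a description because the points share libraries and parent genes. The plot of identity against level shows the kept pseudogenes crowded at the right edge, with Rps4l apart from them at 79.8%.

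**Figure D1:**
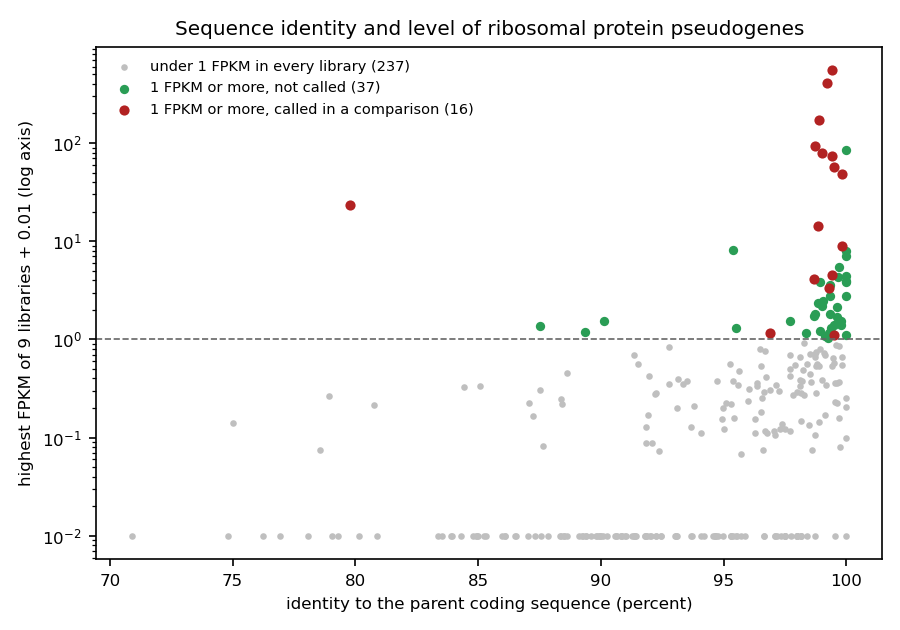
Identity of each ribosomal protein pseudogene to its parent coding sequence (x axis, percent) against its highest FPKM of the 9 libraries plus 0.01 (y axis, log scale), with the 1 FPKM limit as a dashed line. The 237 pseudogenes below the limit are grey, the 37 above it that were called in no strain comparison are green and the 16 called in at least 1 are red, and 14 of those 16 lie at 98% identity or more.

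The sequences of a few copies show how little separates them from their parents. All stretches below are from GENCODE M21 on GRCm38, written 5′ to 3′ in the direction of the gene, and capitals mark the bases at which any copy shown differs from the parent. Rps2 encodes a protein of the small subunit. Its copy Rps2-ps13 (ENSMUSG00000081684) lies on the plus strand of chromosome X, and the stretch shown is chrX:52898976-52899095, which matches bases 389 to 508 of the Rps2 coding sequence. It is shown because Rps2-ps13 had the highest level of all the copies in WSB.
Rps2: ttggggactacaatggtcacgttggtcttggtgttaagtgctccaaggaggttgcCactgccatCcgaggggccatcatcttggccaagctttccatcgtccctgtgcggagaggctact
Rps2-ps13: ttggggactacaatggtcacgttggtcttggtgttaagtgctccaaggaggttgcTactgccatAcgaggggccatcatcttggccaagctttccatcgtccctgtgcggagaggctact

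Over the whole coding sequence of 882 bases, Rps2-ps13 differs from Rps2 at 7 bases: T60A, A84G, T204C, G300A, C444T, C453A and T756C, where the parent's base comes first and positions count from the first base of the start codon. All 7 leave the amino acid unchanged, and the reading frame is complete.

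Rps3a1, which encodes a further small subunit protein, has 2 copies among the 53. Rps3a2 (ENSMUSG00000062611) is on the minus strand of chromosome 14 and Rps3a3 (ENSMUSG00000059751) on the plus strand of chromosome 13, inside an intron of Pde4d. The stretches shown, chr14:88123111-88123230 and chr13:108671181-108671300, match coding bases 579 to 698 of Rps3a1 and hold differences of both copies.
Rps3a1: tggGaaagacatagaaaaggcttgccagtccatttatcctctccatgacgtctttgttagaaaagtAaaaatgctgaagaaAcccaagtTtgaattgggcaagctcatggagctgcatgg
Rps3a2: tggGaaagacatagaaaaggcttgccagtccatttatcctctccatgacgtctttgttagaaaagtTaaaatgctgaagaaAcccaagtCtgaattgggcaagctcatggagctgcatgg
Rps3a3: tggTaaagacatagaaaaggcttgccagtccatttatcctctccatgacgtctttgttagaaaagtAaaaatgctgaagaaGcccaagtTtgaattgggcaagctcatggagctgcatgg

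Rps3a3 carries 9 substitutions over 795 bases, of which 7 leave the amino acid unchanged, and its reading frame is complete. Rps3a2 carries 4, of which T216C and T534C are shared with Rps3a3. Rps24, again of the small subunit, has the copy Rps24-ps3 (ENSMUSG00000081049) on the plus strand of chromosome X. The stretch chrX:79195319-79195438 matches coding bases 273 to 392 and is shown because it holds 3 of the 4 differences in the whole copy (C207T, G273C, G360T and C380T).
Rps24: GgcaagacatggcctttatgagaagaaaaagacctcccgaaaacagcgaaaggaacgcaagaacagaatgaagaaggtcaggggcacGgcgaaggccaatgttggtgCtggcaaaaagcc
Rps24-ps3: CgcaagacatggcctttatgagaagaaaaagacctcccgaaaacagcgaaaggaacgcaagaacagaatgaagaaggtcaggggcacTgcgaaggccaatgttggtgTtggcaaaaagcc

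The large subunit protein Rpl3, which lies near the site of peptide bond formation, has a pair of copies on the plus strand of chromosome X. Rpl3-ps1 (ENSMUSG00000084349) differs from Rpl3 at only 2 aligned bases (C57A and T786C) and Rpl3-ps2 (ENSMUSG00000084131) at 10 bases and 4 gap positions. The stretches chrX:13203297-13203416 and chrX:74171380-74171499 match coding bases 726 to 845 and show T786C, the one base that both copies share against the parent.
Rpl3: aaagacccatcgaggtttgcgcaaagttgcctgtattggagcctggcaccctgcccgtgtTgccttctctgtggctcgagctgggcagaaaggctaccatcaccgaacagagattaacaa
Rpl3-ps1: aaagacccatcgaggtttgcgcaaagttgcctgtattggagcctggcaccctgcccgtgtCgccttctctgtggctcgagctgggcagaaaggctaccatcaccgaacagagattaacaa
Rpl3-ps2: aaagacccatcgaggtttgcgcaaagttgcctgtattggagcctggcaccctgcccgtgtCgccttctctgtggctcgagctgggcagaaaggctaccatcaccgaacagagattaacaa

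Rps26 encodes a small subunit protein beside the path of the mRNA. Its copy Rps26-ps1 (ENSMUSG00000059775) lies on the minus strand of chromosome 8 inside an intron of Wwp2 on the other strand, and has 2 substitutions in 348 bases (C30T and G270A), both of which leave the amino acid unchanged. The stretch chr8:107439234-107439353 matches coding bases 210 to 329 and holds the second of them.
Rps26: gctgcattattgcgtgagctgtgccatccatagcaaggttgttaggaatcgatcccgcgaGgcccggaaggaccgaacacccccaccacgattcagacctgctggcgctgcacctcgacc
Rps26-ps1: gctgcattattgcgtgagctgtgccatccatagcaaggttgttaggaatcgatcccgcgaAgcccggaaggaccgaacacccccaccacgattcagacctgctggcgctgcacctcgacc

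At the other end stands Rpl38-ps2 (ENSMUSG00000080921) on the minus strand of chromosome 6, at chr6:140746960-140747172. Its 213 bases are identical to the coding sequence of Rpl38, a large subunit protein, so the whole copy is shown once and no base in it can tell the 2 genes apart.
Rpl38-ps2: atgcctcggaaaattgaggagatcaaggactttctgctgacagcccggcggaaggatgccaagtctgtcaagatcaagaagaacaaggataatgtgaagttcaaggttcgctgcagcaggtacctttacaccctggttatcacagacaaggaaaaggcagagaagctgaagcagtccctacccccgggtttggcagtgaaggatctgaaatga

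**Figure D2:**
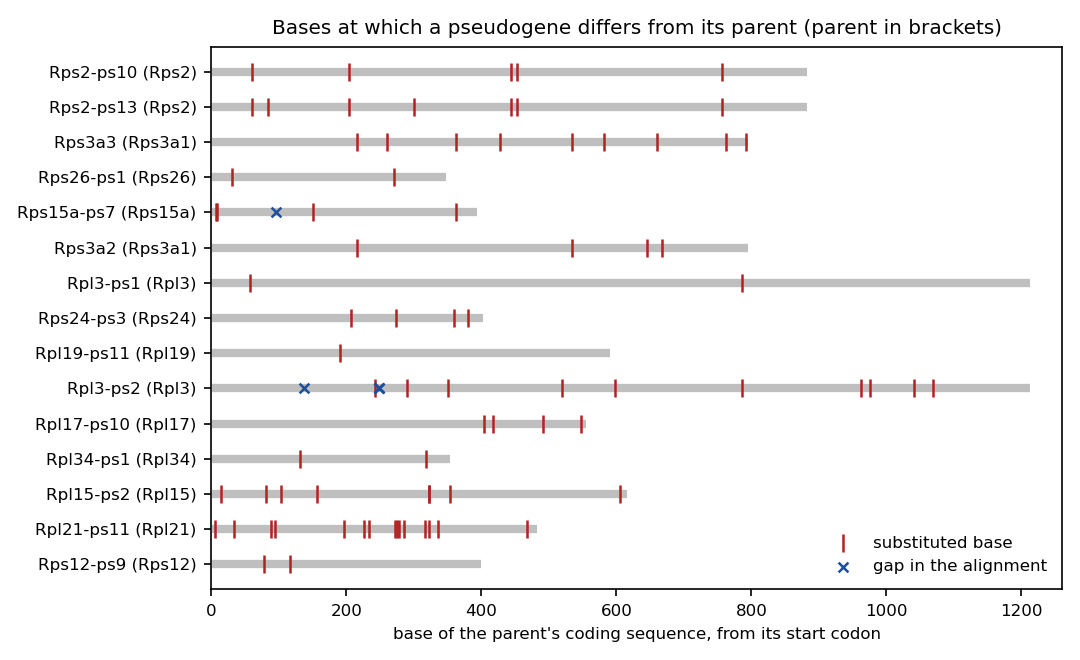
Coding sequences of the parents of 15 pseudogenes called in at least 1 strain comparison, drawn to scale as grey bars from the start codon (x axis, bases), with red ticks at substituted bases and blue crosses at gaps in the alignment. Rps2-ps10 and Rps2-ps13 share 5 tick positions, and most bars hold stretches of more than 100 bases without a tick. Rps4l is left out because it differs from Rps4x at 157 bases.

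Reads were recovered from the FPKM values as whole numbers (100% of values within 0.01 of a whole read), and 16317439 to 21562429 reads per library lay on genes. Markers of cortical neurons were present, with Slc17a7 of excitatory neurons at 238 to 388 FPKM and Gad1 of inhibitory neurons at 39.6 to 54.2 FPKM in the 9 libraries. The haemoglobin gene Hba-a1 stood at 245 to 339 FPKM in C3H against 55.2 to 68.5 in B6 and 99.5 to 127 in WSB, and Mbp of oligodendrocytes at 137 to 203 FPKM in WSB against 249 to 387 in the other strains. The part of either in the results was not tested. In bulk tissue, fewer cells of a type and less RNA per cell cannot be told apart.

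Of the 53 pseudogenes, 48 are annotated as processed and 5 as transcribed processed pseudogenes, 30 are copies of Rpl genes and 23 of Rps genes, and 6 lie on chromosome X. Another annotated gene overlaps 22 of them, and whether counting used the strand is not stated. Mean levels over the 9 libraries were at least 10 FPKM for 10 pseudogenes, 1 to 10 FPKM for 25 and under 1 FPKM for 18. Only 14 reached 1 FPKM in all 9 libraries, and 11 did so in a single library. At the limit, the 3 kept with the lowest peaks were Rpl28-ps3 (1.03 FPKM, 7 reads), Rpl30-ps10 (1.08 FPKM, 8 reads) and Rps13-ps2 (1.09 FPKM, 9 reads). The 3 left out with the highest peaks were Rpl13-ps1 (0.990 FPKM, 14 reads), Rpl19-ps6 (0.917 FPKM, 10 reads) and Rps13-ps1 (0.859 FPKM, 8 reads).

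The strains did not hold equal numbers of these pseudogenes above the limit. A B6 library had 23 to 24 of the 53 at 1 FPKM or more, a C3H library 32 to 36 and a WSB library 33 to 40. All 3 strains had at least 1 library at the limit for 24 pseudogenes. A further 10 reached it in C3H and WSB but in no B6 library, 9 in WSB alone, 4 in B6 alone and 3 in C3H alone. These numbers follow from the choice of any library at 1 FPKM and were not tested.

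Strains were then tested in pairs, with limma fitted to log2(FPKM + 0.1) of every gene that averaged 0.1 FPKM or more over the 6 mice concerned, and a gene was called at a Benjamini-Hochberg adjusted p under 0.05. In WSB against B6, 9 of the 53 pseudogenes were called, 8 higher and 1 lower in WSB. Over all 20746 genes tested 5.90% were called, 2.81% higher and 3.09% lower. In C3H against B6, 13 were called, 11 higher and 2 lower, against 4.64% of 20602 genes (2.38% higher and 2.26% lower). In WSB against C3H, 12 were called, 7 higher and 5 lower in WSB, against 5.74% of 20607 genes (2.61% higher and 3.13% lower). Each comparison shares a strain with the others, so the 3 counts are not separate evidence. A pseudogene that entered through 1 strain had to be lower elsewhere, so these shares cannot be set against the background as a result. The groups of 3 did not overlap for 19, 21 and 20 of the 53, while 26.0%, 28.9% and 28.6% of all genes did not overlap. The median log2 difference of the 53 was 0.49 in WSB against B6 and 0.57 in C3H against B6, where the median of all genes was 0.00 in both, and -0.14 in WSB against C3H, where it was 0.01.

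Called in at least 1 comparison were 16 pseudogenes, and none of these was among the 8 identical copies. Their identity to the parent ranged from 79.8% to 99.8% with a median of 99.2%, near the median of 99.3% for the 37 not called. Rps2-ps10, Rps2-ps13, Rps3a3, Rps3a2, Rps26-ps1, Rps15a-ps7 and Rps24-ps3 reached 1 FPKM in C3H and WSB libraries but in no B6 library. They were kept only through strains other than B6, so their calls against B6 and the p-values of these are a description. Fold changes below are ratios of summed reads after scaling. Fitted log2 values are on the log2(FPKM + 0.1) scale, which understates the change of low genes.

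**Figure D3:**
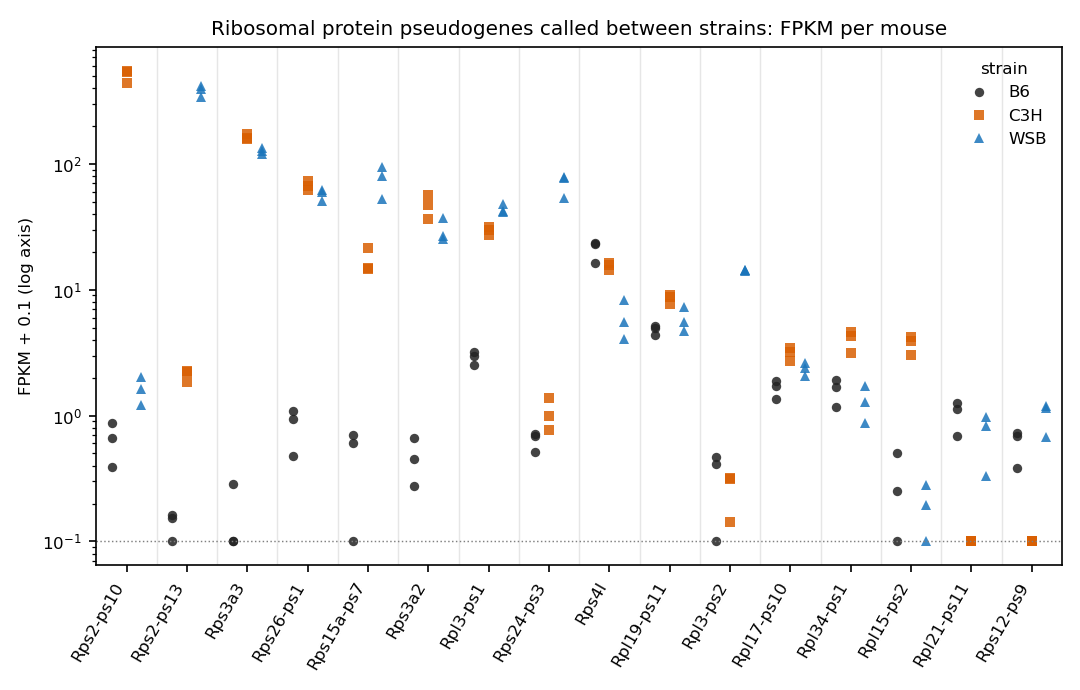
FPKM plus 0.1 (log axis) of the 16 pseudogenes called in at least 1 strain comparison, with 1 point per mouse for B6 (black circles), C3H (orange squares) and WSB (blue triangles); the dotted line marks 0 FPKM. Rps2-ps10 reached 436 to 551 FPKM in C3H alone and Rps2-ps13 338 to 412 FPKM in WSB alone, whereas Rps3a3, Rps26-ps1 and Rps3a2 were high in both C3H and WSB.

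The Rps2 copies had the highest levels. Rps2-ps10 (ENSMUSG00000091957) lies on the minus strand of chromosome 18 inside an intron of Pde6a on the other strand. It differs from Rps2 at 5 bases over 99.7% of the coding sequence, all 5 leave the amino acid unchanged, and Rps2-ps13 carries the same base at each of the 5. Rps2-ps10 stood at 0.289, 0.564 and 0.778 FPKM in the 3 B6 mice, 531, 436 and 551 FPKM in C3H and 1.12, 1.92 and 1.53 FPKM in WSB. C3H alone was high, and no C3H value overlapped the other strains. The summed reads were 906-fold higher in C3H than in B6 (28016 against 32 reads) and 331-fold higher than in WSB. The fitted log2 difference of C3H from B6 was 9.69 (SE 0.27, limma adjusted p = 1.6e-06).

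Rps2-ps13 held the same place in WSB. It had 0.0633, 0 and 0.0532 FPKM in B6, 2.13, 1.76 and 2.16 FPKM in C3H and 338, 412 and 395 FPKM in WSB. The 3 strains did not overlap, with B6 lowest and WSB highest. B6 had only 2 reads in all, so the ratio of WSB to B6 of 10022 has a wide 95% counting interval of 2774 to 82763. The fitted log2 difference was 11.45 (SE 0.19, limma adjusted p = 2.8e-07) for WSB against B6 and 7.50 (SE 0.11, limma adjusted p = 1.0e-07) for WSB against C3H.

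Reads on Rps2 itself moved the other way. The B6 mice had 7115, 9614 and 10326 reads on Rps2, the C3H mice 6116, 4941 and 5515 and the WSB mice 2501, 2812 and 2180. No 2 strains overlapped on the FPKM scale, where Rps2 fell by 1.66 in WSB against B6 on the log2 scale (SE 0.13, limma adjusted p = 0.00049) and by 0.65 in C3H against B6 (SE 0.12, limma adjusted p = 0.028). The C3H call was lost without B6 replicate 2 (adjusted p = 0.12), B6 replicate 3 (0.095) or C3H replicate 3 (0.11). Of the reads on Rps2 and Rps2-ps13 together, 66.5% to 74.5% lay on the pseudogene in WSB, 0.57% to 0.67% in C3H and 0% to 0.014% in B6. Of the reads on Rps2 and Rps2-ps10, 60.9% to 65.2% lay on the pseudogene in C3H, 0.71% to 1.2% in WSB and 0.070% to 0.15% in B6.

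Reads were then summed over each parent and its near copies (genes with a transcript at 95% identity or more over at least 80% of the parent's coding sequence, beside the pseudogenes described here) and expressed as RPM, reads scaled to the library size that FPKM implies. For Rps2 and its copies (23 genes) the B6 sum was 454 ± 48.3 RPM (SD, n = 3). WSB overlapped it at 483 ± 40.6 RPM (SD, n = 3). In WSB the mean on Rps2 was lower than in B6, a difference of -309 RPM, and the mean on the pseudogenes 338 RPM higher. In C3H the sum was 784 ± 90.8 RPM (SD, n = 3), above every B6 library, with a difference from B6 of 490 RPM on the pseudogenes and of -163 RPM on Rps2. With 3 mice against 3, an exact permutation test of such a sum cannot go below p = 0.1, so none is given.

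The Rps3a1 copies were high in both C3H and WSB. Rps3a3 had 0, 0.187 and 0 FPKM in B6, 172, 158 and 161 FPKM in C3H and 127, 134 and 120 FPKM in WSB. With 3 B6 reads in all, the ratio to B6 was 2577 in C3H (95% counting interval 881 to 12499) and 1997 in WSB (683 to 9686). C3H and WSB did not overlap either, but that difference was small (1.29-fold, limma adjusted p = 0.034). It was lost without any 1 of the WSB mice or of C3H replicates 1 and 3 (adjusted p = 0.061 to 0.13), without the filter on low values (0.064), without the trend (0.11) and with all 3 strains in one fit (0.52), so the order of C3H and WSB is not firm.

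Rps3a2 followed with 0.353, 0.563 and 0.178 FPKM in B6, 36.4, 46.7 and 56.4 FPKM in C3H and 26.6, 25.4 and 36.9 FPKM in WSB. Both other strains lay above B6, by 129-fold in C3H and 82.5-fold in WSB, and C3H and WSB overlapped. The fitted log2 differences from B6 were 6.71 (SE 0.31) and 6.07 (SE 0.31), with limma adjusted p of 2.7e-05 and 4.5e-05. Rps3a2 was kept only through C3H and WSB libraries, so these calls are a description.

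Rps3a1, the parent, had 299, 308 and 327 FPKM in B6, 65.9, 54.1 and 55.9 FPKM in C3H and 53.6, 58.5 and 41.3 FPKM in WSB. Both other strains were lower than every B6 mouse, by 2.41 (SE 0.09, limma adjusted p = 1.1e-05) and 2.62 (SE 0.13, limma adjusted p = 3.7e-05) on the log2 scale. They overlapped each other and were not called apart (limma adjusted p = 0.415). The parent took 99.7% to 99.8% of the reads of this family in B6, but C3H had 23.97% to 27.9% and WSB 24.4% to 31.1% on it. Unlike that of Rps2 in WSB, the family sum was lower than in B6 in both strains without overlap. B6 had 305 ± 14.1 RPM, C3H had 225 ± 7.49 RPM and WSB had 175 ± 9.34 RPM (SD, n = 3 each).

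**Figure D4:**
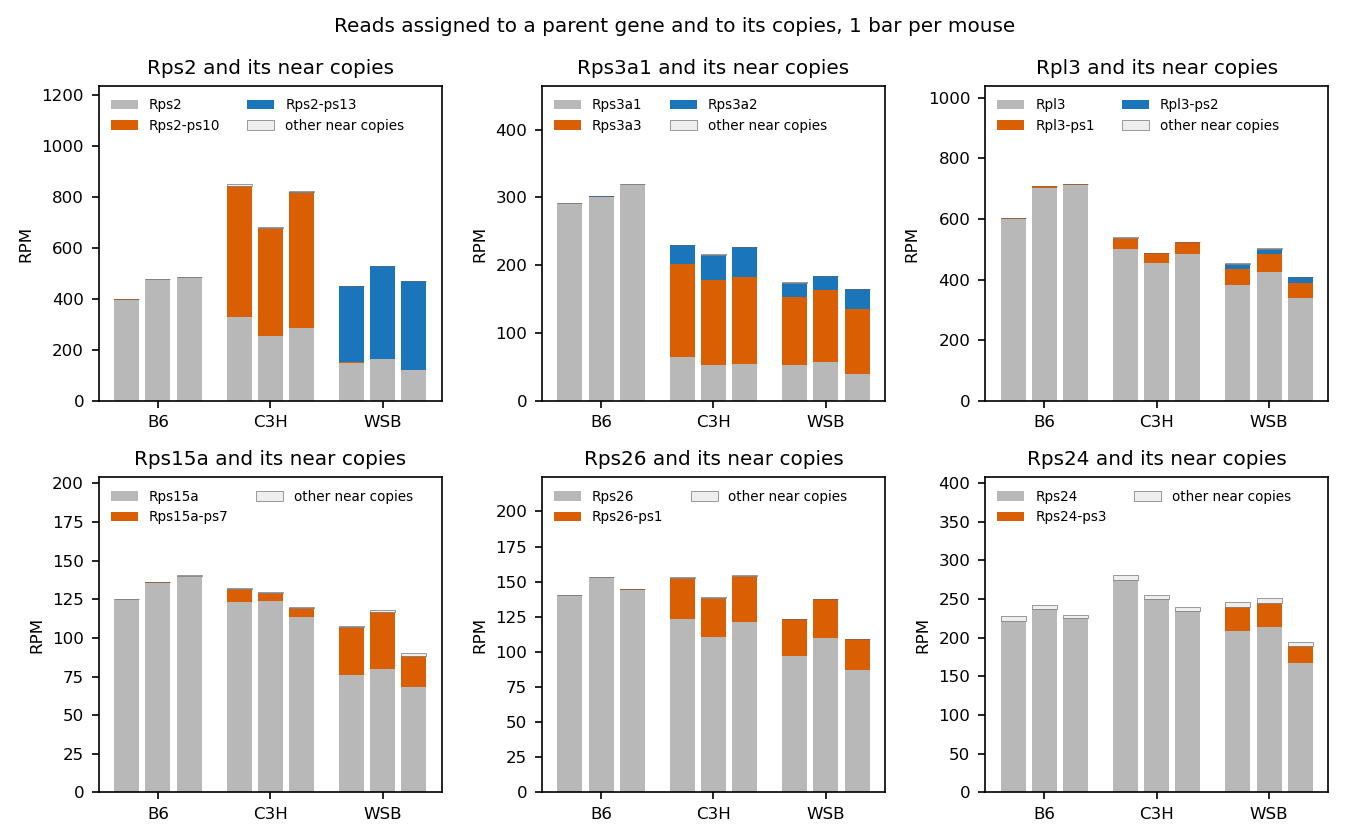
RPM (y axis, from 0) on 6 parent genes and on their near copies, 1 stacked bar per mouse with 3 mice per strain: parent in grey, called pseudogenes in colour and all other near copies in pale grey with an outline. The coloured parts are near 0 in every B6 bar, make up most of the Rps2 and Rps3a1 bars in C3H and WSB, and are a smaller part of the Rpl3, Rps15a, Rps26 and Rps24 bars.

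Rps26-ps1 took overlapping shares of reads in C3H and WSB. It had 0.373, 0.993 and 0.836 FPKM in B6, 66.1, 62.3 and 73.6 FPKM in C3H and 59.3, 61.6 and 50.1 FPKM in WSB. B6 was low, and the fitted log2 differences from B6 were 6.42 (SE 0.29) in C3H and 6.18 (SE 0.29) in WSB, with limma adjusted p of 2.3e-05 and 3.2e-05. Of the reads on Rps26 and its copy, 19.4% to 21.4% lay on the copy in C3H, 20.1% to 21.6% in WSB and 0.12% to 0.29% in B6. Rps26 itself fell by 0.58 in WSB against B6 on the log2 scale (SE 0.10, limma adjusted p = 0.014), a call that was lost without B6 replicate 2 (adjusted p = 0.070), B6 replicate 3 (0.053) or WSB replicate 1 (0.057). In C3H its difference of -0.30 from B6 was not called (limma adjusted p = 0.071). The family sum overlapped between C3H and B6, at 149 ± 8.67 and 146 ± 6.54 RPM (SD, n = 3 each), and was lower in WSB at 124 ± 14.2 RPM (SD, n = 3).

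Rps24-ps3 and Rpl3-ps2 were high in WSB alone. Rps24-ps3 had 0.417, 0.616 and 0.584 FPKM in B6, 0.668, 0.899 and 1.28 FPKM in C3H and 76.9, 78.6 and 53.8 FPKM in WSB. The WSB mice stood far above both other strains, 127-fold above B6 and 72.8-fold above C3H. The parent Rps24 was called in no comparison, with a log2 difference of -0.22 in WSB against B6 (limma adjusted p = 0.28), and the pseudogene took 11.4% to 12.9% of the reads on the pair in WSB. The sum of Rps24 and its near copies overlapped between all 3 strains.

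Rpl3-ps2 had 0, 0.367 and 0.309 FPKM in B6, 0.221, 0.213 and 0.0424 FPKM in C3H and 14.4, 14.0 and 14.3 FPKM in WSB. It was 60.4-fold higher in WSB than in B6 and 90.1-fold higher than in C3H, while B6 and C3H overlapped. The log2 difference of WSB from B6 was 5.74 (SE 0.54, limma adjusted p = 0.0011). Rpl3-ps2 was kept only through WSB libraries, so this call and the call against C3H are a description. Rpl3-ps1, the closer copy, was above 1 FPKM in every mouse.

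Rpl3-ps1 stood at 2.40, 3.11 and 2.87 FPKM in B6, 29.7, 27.3 and 31.6 FPKM in C3H and 42.1, 48.0 and 41.5 FPKM in WSB. The strains were ordered B6, C3H, WSB without overlap, at 10.5-fold (C3H) and 15.6-fold (WSB) above B6. The step from C3H to WSB was 1.48-fold (limma adjusted p = 0.013) and was not called without C3H replicate 1 (adjusted p = 0.063). Rpl3 itself ran in the reverse order, with 189, 222 and 224 FPKM in B6, 158, 143 and 153 FPKM in C3H and 121, 134 and 107 FPKM in WSB. It was called lower than B6 in WSB by -0.81 (SE 0.11, limma adjusted p = 0.0061). In C3H the difference of -0.48 (limma adjusted p = 0.031) was lost without B6 replicate 2 (adjusted p = 0.13), B6 replicate 3 (0.10), C3H replicate 1 (0.089) or C3H replicate 3 (0.11). The family sum was lower in both strains than in any B6 mouse, at 517 ± 26.1 RPM in C3H and 456 ± 46.7 in WSB against 676 ± 63.8 in B6 (SD, n = 3 each).

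Rps15a-ps7 (ENSMUSG00000081087), on the minus strand of chromosome 2, is a copy of a small subunit gene with 4 substitutions and 1 gap base. It had 0, 0.505 and 0.599 FPKM in B6, 21.5, 14.7 and 14.5 FPKM in C3H and 79.3, 93.7 and 52.2 FPKM in WSB. Each strain was apart from the others, with C3H 43.6-fold and WSB 193-fold above B6. Rps15a was called lower in WSB than in B6 by -0.83 (SE 0.09, limma adjusted p = 0.0018) and lower in WSB than in C3H by -0.68 (SE 0.09, limma adjusted p = 0.0055). In C3H against B6 its difference of -0.15 was not called (limma adjusted p = 0.27). The pseudogene took 23.1% to 31.4% of the reads on the pair in WSB and 4.5% to 6.4% in C3H. The family sum was 134 ± 7.76 RPM in B6 and 127 ± 6.67 RPM in C3H, which overlapped, and was lower in WSB at 105 ± 14.1 RPM without overlap (SD, n = 3 each).

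Rpl15-ps2, a copy of a large subunit gene, stood above 1 FPKM in C3H alone. It had 0, 0.404 and 0.153 FPKM in B6, 4.12, 3.79 and 2.94 FPKM in C3H and 0, 0.0942 and 0.179 FPKM in WSB. C3H was 18.8-fold above B6 (127 against 7 reads). Against the 3 reads of WSB the ratio was 38.5, with a 95% counting interval of 12.9 to 189. Rpl15-ps2 was kept only through C3H libraries, so both ratios and the calls behind them are a description. Its parent Rpl15 was called in no comparison, at 66.3 ± 2.56 FPKM in B6, 64.6 ± 3.25 in C3H and 68.5 ± 4.34 in WSB (SD, n = 3 each), and the pseudogene held 1.18% to 1.53% of the reads on the pair in C3H.

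Rpl21-ps11 and Rps12-ps9 had 0 reads in every C3H mouse. Rpl21-ps11 had 10, 10 and 6 reads in B6, 0 in each C3H mouse and 7, 6 and 2 reads in WSB, and Rps12-ps9 had 2, 5 and 5 reads, 0 in each C3H mouse and 7, 4 and 8 reads. Against a limit of 3 reads over the group, Rpl21-ps11 was at least 8.37-fold lower in C3H than in B6 and Rps12-ps9 at least 3.86-fold lower. Against WSB they were at least 5.50-fold and at least 6.96-fold lower. The C3H against B6 call of Rpl21-ps11 and the WSB against C3H call of Rps12-ps9 held with each mouse left out. However, Rpl21-ps11 was kept only through B6 libraries (1.16 and 1.03 FPKM) and Rps12-ps9 only through WSB libraries (1.05 and 1.10 FPKM). Each was thus chosen by the strain in which that call was high, and both calls are a description. The C3H against B6 call of Rps12-ps9 was lost without B6 replicate 2 or 3 or C3H replicate 1 or 3 (adjusted p = 0.051 to 0.094), and the WSB against C3H call of Rpl21-ps11 without WSB replicate 1 or 2 or C3H replicate 1 or 3 (adjusted p = 0.077 to 0.10). Rpl21, the parent of the first, was lower in C3H than in B6 by -0.67 (SE 0.09, limma adjusted p = 0.0078), while Rps12 was not called in any comparison. An intron of Gm20388 on the same strand covers Rps12-ps9.

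Rps4l (ENSMUSG00000063171), on the plus strand of chromosome 6, was less like its parent than the other called copies. It shares 79.8% identity with Rps4x, the X-linked small subunit gene, has no stretch of 100 bases in common with it and carries 157 substitutions. It had 16.2, 22.9 and 23.3 FPKM in B6, 14.2, 16.1 and 15.6 FPKM in C3H and 5.48, 8.21 and 3.95 FPKM in WSB. WSB was lowest without overlap, 3.60-fold below B6 (log2 difference -1.85, SE 0.26, limma adjusted p = 0.0078) and 2.62-fold below C3H. The latter call was lost without WSB replicate 1 or C3H replicates 1 or 3 (adjusted p = 0.062 to 0.067). Rps4x was called in no comparison, and its mean was 159 ± 10.03 FPKM in B6, 181 ± 13.1 in C3H and 162 ± 12.2 in WSB (SD, n = 3 each). Rps4l was the one member called lower in WSB than in B6.

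The remaining called copies were low and differed less. Rpl34-ps1 had 1.58, 1.82 and 1.06 FPKM in B6, 3.04, 4.52 and 4.22 FPKM in C3H and 1.19, 1.63 and 0.773 FPKM in WSB, which put C3H 2.67-fold above B6 and 3.31-fold above WSB. The first of these calls was lost without B6 replicate 1 (adjusted p = 0.057) or C3H replicate 3 (0.079), and the second without WSB replicate 1 (0.054) or C3H replicate 3 (0.066). Rpl17-ps10 was 1.95-fold higher in C3H than in B6 (96 against 51 reads), a call lost without B6 replicate 1 or 2 or C3H replicate 1 or 3 (adjusted p = 0.069 to 0.10). Rpl19-ps11, with 1 substitution against Rpl19, had 4.25, 4.86 and 5.08 FPKM in B6, 7.55, 8.64 and 8.89 FPKM in C3H and 5.39, 7.13 and 4.63 FPKM in WSB. C3H lay above both other strains, 1.76-fold above B6 (limma adjusted p = 0.0066). Its parent Rpl19 was also higher in C3H than in B6 without overlap, at 318 ± 29.5 against 242 ± 16.7 FPKM (SD, n = 3 each), but was not called (limma adjusted p = 0.075).

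Rpl38-ps2, the highest of the copies that were not called, had 51.7, 56.96 and 64.3 FPKM in B6, 81.5, 71.5 and 52.5 FPKM in C3H and 77.6, 85.1 and 50.9 FPKM in WSB. The strains overlapped, and so did those of Rpl38. The copy took 8.2% to 9.2% of the reads on the pair in B6, while C3H had 8.4% to 10.2% and WSB 9.6% to 10.7%. The other identical copies were low, from Rpl31-ps8 with 3.51 to 7.96 FPKM and Rps16-ps2 with 3.51 to 7.07 FPKM down to Rps13-ps2 with 0.119 to 1.09 FPKM.

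A parent gene entered only through a copy that reached 1 FPKM, and reads of the parent can fall on that copy. The 37 parent genes were thus not free of that choice, and their counts are a description. Of the 37, 7 were called in WSB against B6 and all 7 were lower. Of all genes, 5.90% were called and 3.09% were lower. In C3H against B6, 5 were called and all 5 were lower, against 4.64% of all genes called and 2.26% lower. In WSB against C3H, 6 were called, 2 higher and 4 lower in WSB, against 5.74% of all genes called, 2.61% higher and 3.13% lower. The median log2 difference of the 37 was 0.00, 0.16 and -0.21 in these comparisons. Of all 79 coding genes of the cytosolic ribosome, 10 were called in WSB against B6 (0 higher and 10 lower), 9 in C3H against B6 (2 higher and 7 lower) and 8 in WSB against C3H (2 higher and 6 lower), to be read against the same shares of all genes. Their median log2 differences were 0.03, 0.19 and -0.22.

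Other coding genes were called lower where no copy among the 53 was called. Rpl26, of the large subunit, had 145, 152 and 151 FPKM in B6, 5.88, 5.22 and 4.71 FPKM in C3H and 170, 170 and 137 FPKM in WSB. C3H was lower by 4.81 on the log2 scale (SE 0.09, limma adjusted p = 2.9e-07), and its one copy among the 53, Rpl26-ps6, was not called. A processed pseudogene named outside the symbol rule, Gm15772, with 99.5% identity to Rpl26, had 2501, 2461 and 2760 reads in C3H against 7 in each B6 mouse and 6, 10 and 11 reads in WSB. With it, the sum over Rpl26 and its near copies was 143 ± 7.26 RPM in C3H, still below the 217 ± 5.14 of B6 and the 231 ± 27.4 of WSB (SD, n = 3 each).

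Rps18, of the small subunit, was lower in WSB than in B6 by -1.45 (SE 0.07, limma adjusted p = 4.9e-05). Its copy among the 53, Rps18-ps3, stayed at 0.113 to 1.14 FPKM, while Gm11361, annotated as coding and 99.3% identical to Rps18, had 5, 17 and 11 reads in B6, 111, 113 and 105 reads in C3H and 394, 506 and 424 reads in WSB. With these copies the sum over Rps18 was still lower in WSB, at 91.1 ± 1.97 RPM against 180.1 ± 13.9 RPM in B6 (SD, n = 3 each), without overlap. Rpl35a was lower in WSB than in B6 by -1.94 (SE 0.14, limma adjusted p = 0.00025), and its copy Rpl35a-ps2, with 1 substitution, had 10, 2 and 10 reads in B6 and 10, 11 and 33 reads in WSB and was not called. The sum over Rpl35a and its near copies was 38.2 ± 6.66 RPM in WSB against 136 ± 14.003 RPM in B6 (SD, n = 3 each), again without overlap. Near copies outside the symbol rule were listed where they held at least 30 reads in a library, and they were looked at after the values of their parents were known.

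This gave 9 near copies, of which Gm15772 and Gm11361 are described above. Gm10020, a processed pseudogene 99.7% identical to Rpl15, had 1, 1 and 3 reads in B6, 195, 171 and 176 reads in C3H and 1, 0 and 2 reads in WSB. C3H was high without overlap (log2 difference from B6 6.11, limma adjusted p = 1.1e-05), while Rpl15 was not called and the sum over Rpl15 and its near copies overlapped between all strains. Gm2225, a copy of Rps25, was also high in C3H alone, with 53, 41 and 49 reads against at most 6 in any other mouse (limma adjusted p = 0.0028 against B6). Gm6311, a copy of Rps2, had 82, 16 and 12 C3H reads and at most 1 elsewhere (limma adjusted p = 0.016 against B6). Gm5879, a copy of Rpl3, was higher in WSB, with 38, 27 and 37 reads against 3 to 14 in the other mice (limma adjusted p = 0.017 against B6). AC165079.1, a copy of Rpl15, was lower in WSB, with 1, 2 and 0 reads against 6, 37 and 25 in B6 (limma adjusted p = 0.032). BC004004, a coding gene close to Rpl21, and Gm2830, a copy of Rps24, were called in no comparison.

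Ribosomal protein pseudogenes that stayed under 1 FPKM were counted in the same way. Of all genes tested, 5.90% were called in WSB against B6, 4.64% in C3H against B6 and 5.74% in WSB against C3H. With about 50 low pseudogenes per comparison, a few calls more or less cannot set them apart from these shares. In WSB against B6, limma called 0 of the 49 that passed the filter on low values (6 had an unadjusted p under 0.05), in C3H against B6 2 of 50 (Rpl10-ps6 lower and Rps15a-ps8 higher in C3H) and in WSB against C3H 1 of 48. Pseudogenes outside the symbol rule were called in 189 of 1349, 146 of 1308 and 180 of 1329 cases. These still include copies of ribosomal protein genes under other names, such as Gm15772 and Gm10020. No test of the difference between these classes was run, since the level that defines the 53 also decides how easily a change is called.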

How the data were processed

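Cortex RNA of 9 male mice was sequenced (3 mice per strain by the labels). The authors trimmed reads with Cutadapt, and the submitters' processing notes name STAR, HTSeq and DESeq2; versions, annotation release, strand use and the handling of reads that match several genes are not given in the sources used here. The authors deposited 1 table of FPKM values per gene. FPKM are not counts, so DESeq2 was not run. FPKM times gene length gave whole reads for 100% of values (tolerance 0.01), and 0 columns of values were left unused. These reads give depth, shares and ratios, and their intervals and limits cover counting error only.

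Strains were compared pairwise by limma 3.58.1 (R 4.3.3, eBayes with a trend) on log2(FPKM + 0.1), leaving out each gene that averaged under 0.1 FPKM over the 6 mice, with Benjamini-Hochberg adjustment over all of them and a threshold of 0.05. The fit was also run on simulated counts with the same spread for all genes and modest changes in genes at higher levels. The outcome is not given here, and the simulation does not cover copies with few reads or very large changes. P-values set the difference between strains against the spread between mice of a strain, which limma moderates over all genes tested. For copies with few B6 reads, that spread also holds counting error and depends on the pseudocount. Parents came from the symbol or, for 4 pseudogenes, the best blastn 2.17.0 match among ribosomal protein genes, and all 53 pseudogenes have the same coordinates in GENCODE M21 (GRCm38). Near copies needed 95% identity over 80% of the coding sequence. Tables and plots used Python 3.11.15, pandas 2.3.3 and matplotlib 3.10.9.

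Genes named are the pseudogenes called in a comparison, the 10 with the highest mean, 3 on each side of the 1 FPKM limit and their parents; near copies outside the symbol rule, low identical copies, low pseudogenes called, and Rpl26, Rps18 and Rpl35a with their copies were named after their values were seen. The pseudogenes and gene lists were chosen with earlier results of these data known. Alternatives varied the pseudocount, the filter, the scaling, the samples in the fit, the trend, voom weights on recovered reads, GC content, the replicate number as a block, and the mice left out. The alternative scaling used median ratios between libraries, which the deposited FPKM already carry. It therefore changed almost nothing and is no check of the scaling.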

Additional observations from a re-analysis of the deposited data

Results flagged for a closer look

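For 12 pseudogenes the difference of WSB from B6 was not the same as that of C3H from B6. These are the 12 called in WSB against C3H, since B6 cancels between the differences (limma, log2(FPKM + 0.1), Benjamini-Hochberg adjustment). They are therefore not a further result, and 5.74% of all genes were called in that comparison. Rpl3-ps2 and Rps12-ps9 were kept only through WSB libraries and Rpl15-ps2 only through C3H libraries, so their values here are a description. WSB lay above C3H by 7.50 on the log2 scale for Rps2-ps13, 6.08 for Rps24-ps3, 5.88 for Rpl3-ps2, 3.29 for Rps12-ps9, 2.68 for Rpl21-ps11, 2.13 for Rps15a-ps7 and 0.57 for Rpl3-ps1. The value was -8.31 for Rps2-ps10, -4.39 for Rpl15-ps2, -1.67 for Rpl34-ps1, -1.43 for Rps4l and -0.37 for Rps3a3. The call of Rps3a3 was lost under 9 alternatives (limma adjusted p up to 0.52). Calls were also lost for Rpl21-ps11 under 6, Rps4l under 4, Rpl3-ps1 under 3, Rpl34-ps1 under 2 and Rps15a-ps7 under 1. Groups of 3 mice were not examined for outlying samples.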

How the results depend on the processing

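The number of pseudogenes called stayed within 1.5 times its value under each alternative run, at 9 to 10 in WSB against B6, 11 to 14 in C3H against B6 and 9 to 13 in WSB against C3H. Leaving out each mouse in turn gave 9 to 11, 10 to 15 and 8 to 12. The share of all genes called under each of these settings, or with the replicate block below, is not given. These counts therefore do not separate the pseudogenes from the rate of calls over all genes. Of 52 fold changes of pseudogenes and parents, 37 kept their call under every alternative and none changed direction. All 52 had been called in these same data, so a change of direction was unlikely beforehand. The fold changes of parents were examined under alternatives chosen after seeing the data. Requiring a mean of 1 FPKM would keep 35 pseudogenes, and 1 FPKM in all 9 libraries 14. With a pseudocount of 0.01, Rpl15-ps2 was not called in C3H against B6 (limma adjusted p = 0.057), and with all 3 strains in one fit Rps15a-ps7 was not called in WSB against C3H (0.070), nor was Rps3a3 (0.52). Without the trend in eBayes, calls were lost for Rpl17-ps10 (0.054) and Rpl34-ps1 (0.055) in C3H against B6, for Rpl3-ps1 (0.056), Rps3a3 (0.11) and Rps4l (0.054) in WSB against C3H, and for the parents Rpl3 (0.10) and Rps2 (0.092) in C3H against B6, Rps26 (0.062) in WSB against B6 and Rpl21 (0.090) in WSB against C3H. Voom weights ended the C3H against B6 calls of Rpl17-ps10 (0.099) and Rpl34-ps1 (0.060). With no filter on low values, Rps3a3 in WSB against C3H (0.064) and the parents Rps2 (0.057) and Rpl3 (0.065) in C3H against B6 were not called, and with a pseudocount of 1 neither was Rpl21-ps11 in WSB against C3H (0.064). The cause was not tested.

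Mice with the same replicate number did not vary together (correlations of their deviations from -0.157 to 0.037), so the numbers do not pair the mice. With the replicate number as a block, 9, 13 and 10 pseudogenes were called in WSB against B6, C3H against B6 and WSB against C3H. The block ended the calls of Rps12-ps9 (limma adjusted p = 0.062), Rpl21 (0.056), Rps2 (0.11) and Rpl3 (0.13) in C3H against B6, and of Rps3a3 (0.11), Rpl3-ps1 (0.065) and Rpl21-ps11 (0.064) in WSB against C3H.

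Counts under about 10 reads in a mouse limit Rpl21-ps11, Rps12-ps9 and the B6 values of most copies, where folds are wide. Read assignment between copies that share long identical stretches cannot be checked without the reads, and bases at which C3H or WSB differ from the reference were not analysed here.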
